A study of Mus musculus with 6 samples.

Results

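The genes described here are 46 listed genes of the kinetochore, the mitotic spindle and cytokinesis, with RNA levels measured by sequencing in the mouse line mDE6. They were chosen by name, with earlier results of these data known. The list covers mitotic kinases and cyclins, kinetochore and checkpoint proteins, mitotic kinesins, and genes of chromosome separation and cytokinesis. All 46 symbols were found among the 22032 genes of the deposited table, and all 46 were expressed enough to be tested, so no member was lost to the filter on low values. One group is mDE6 carrying a short hairpin RNA (shArl4c) that targets Arl4c, the gene of a GTPase in the ARF family, and it was set against mDE6 with a control hairpin (shControl), at 3 libraries a group. The table numbers its columns shArl4c 2, 3 and 4 and shControl 1, 2 and 3, and these numbers are used here. With a single labelled Arl4c hairpin, loss of Arl4c and any other effect of the hairpin cannot be told apart. Nothing in the labels states that a group's libraries are independent cultures, and the p-values then reflect the spread of these libraries alone, which may be technical.

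Values are CPM, reads of a gene scaled to a common library size by the authors. The libraries held 12316770 to 14976113 reads, so 1 read was worth 0.0672 to 0.0827 CPM. The members had 84 to 6224 reads each in shArl4c libraries and 68 to 5216 in shControl libraries, where Cenpk was the lowest and Top2a the highest. Arl4c itself was lower in every shArl4c library, with 6.75, 7.42 and 6.89 CPM in shArl4c 2, 3 and 4, against 20.7, 21.0 and 20.1 CPM in shControl 1, 2 and 3 (2.94-fold lower, limma adjusted p = 2.08e-10).

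At cell division, the cyclin B-CDK1 kinase drives entry into mitosis, and the Aurora and Polo-like kinases help to build the spindle. Kinetochores, assembled on centromeres marked by the histone variant CENP-A, bind spindle microtubules, and the spindle checkpoint holds back the anaphase-promoting complex until every chromosome is attached. That complex, with its activator CDC20, then marks securin and cyclin B for destruction, which frees separase to cut cohesin, after which the central spindle and RhoA direct cytokinesis. Most of these genes are transcribed late in the cell cycle, so in a population of cells their RNA is known to rise with the share of cells in G2 and M phase.

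The mitotic genes were higher in shArl4c as a group, by a small amount each. Of 46 members, 42 passed limma's test in the higher direction, 0 in the lower direction and 4 did not pass, at an adjusted p under 0.05 over all tested genes. Over all 14740 tested genes, 18.9% were called higher and 18% lower in shArl4c, 36.9% in all. With edgeR, 38 members were called higher, against 17.4% of all genes (36% in either direction), and with DESeq2 33, against 13.6% (27.9% in either direction). The 0 lower members were also 0 at an unadjusted p under 0.05 and with edgeR and DESeq2, since every member had a fold change above 0. The median log2 fold change was 0.28 over the members and 0.01 over all tested genes. Folds of the means ran from 1.06 for Ube2c to 1.45 for Ect2, with a median of 1.22. Of the members, 14 of 46 were at least 1.25-fold higher and 0 reached 1.5-fold, where 1928 and 789 of all 14740 tested genes did. In bulk RNA, more cells in mitosis and more of each RNA per dividing cell cannot be told apart.

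The 3 shArl4c libraries all lay above the 3 shControl libraries for 43 members, where groups did not overlap in the higher direction in 24.3% of all tested genes. The members together took 0.450%, 0.440% and 0.448% of the reads in shArl4c 2, 3 and 4, against 0.353%, 0.355% and 0.361% in shControl 1, 2 and 3. The groups did not overlap in this sum either. The coefficient of variation between libraries of a group had a median over members of 3.76% in shArl4c and 3.26% in shControl, where counting error alone would give 3.27% in shArl4c and 3.62% in shControl at these depths. On the log2(CPM + 1) scale, the median member stood 0.31, 0.21 and 0.29 above its shControl mean in shArl4c 2, 3 and 4. Library shArl4c 3 gave the lowest value of its group for 32 of the 46 members and the highest for 5. In every setting tried, all 46 fold changes stayed above 0. Without shArl4c 3, limma called 43 members higher and 0 lower, with a median log2 fold change of 0.30. Over the settings tried, 4108 to 6885 of all genes were called in either direction.

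**Figure D1:**
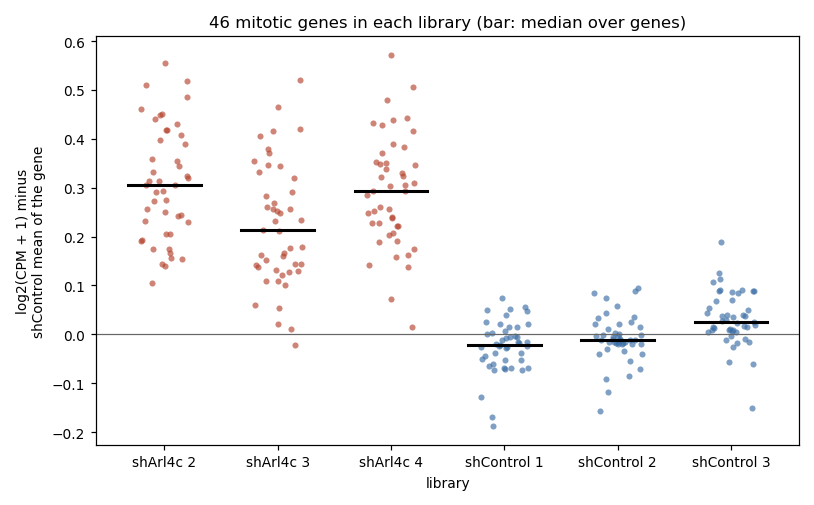
Each point is 1 of the 46 mitotic genes, as log2(CPM + 1) minus the mean of that gene over the shControl libraries (vertical axis), in the 3 shArl4c libraries (red, left) and the 3 shControl libraries (blue, right), with a bar at the median over genes. The medians are 0.31, 0.21 and 0.29 in shArl4c 2, 3 and 4 and lie between -0.02 and 0.03 in the shControl libraries.

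Many of the members, though not all, share short promoter sequences as well as their function. The cell cycle genes homology region (CHR) is a short element to which the MuvB core of the DREAM complex binds, and CCAAT boxes are bound by NF-Y. Both are known in promoters of late cell cycle genes. RefSeq windows of GRCm38.p6, from 250 bases before to 50 after an annotated start, were at hand for 41 of the 46 members. The CHR was searched as TTTGAA and as TTCGAA, the other motif as CCAAT, all on both strands, and a CHR match can share at most 1 end base with a CCAAT match. CHR letters were in 31 of the 41 members (75.6%), against 21.7% of 27025 genes with a window. CCAAT was in 31 members (75.6%), against 41.1% of all. Both were in 27 members (65.9%), against 8.61% of all. CHR letters from 50 bases before the start onward were in 28 members (68.3%), against 6.12% of all. Of the 10012 tested genes with a window, 16.5% held CHR letters, 43.6% CCAAT and 6.93% both. CHR letters from 50 bases before the start onward were in 4.33% of these tested genes. A match is a description of letters and not of binding.

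Stretches from 130 bases before to 50 after the start are shown for the members with the largest rises that had a window (Ect2, Espl1, Kif4), for genes of mitotic entry (Cdk1, Ccnb2, Plk1), for the centromere histone Cenpa, for Cdc20, and for Ube2c, the member with the smallest difference. Capitals mark the CHR and CCAAT letters on either strand. They lie on GRCm38.p6, 5′ to 3′ on the strand of the gene, at chr3:27153829-27154008 on the minus strand (Ect2, the first of its listed starts), chr15:102296163-102296342 on the plus strand (Espl1), chrX:100625935-100626114 on the plus strand (Kif4), chr10:69352863-69353042 on the minus strand (Cdk1), chr9:70421505-70421684 on the minus strand (Ccnb2), chr7:122159305-122159484 on the plus strand (Plk1), chr5:30666756-30666935 on the plus strand (Cenpa), chr4:118437294-118437473 on the minus strand (Cdc20) and chr2:164769799-164769978 on the plus strand (Ube2c).
Ect2: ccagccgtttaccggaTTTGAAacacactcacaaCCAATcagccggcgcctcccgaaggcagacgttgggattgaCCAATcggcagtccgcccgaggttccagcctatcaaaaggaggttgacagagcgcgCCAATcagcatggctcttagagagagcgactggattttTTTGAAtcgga
Espl1: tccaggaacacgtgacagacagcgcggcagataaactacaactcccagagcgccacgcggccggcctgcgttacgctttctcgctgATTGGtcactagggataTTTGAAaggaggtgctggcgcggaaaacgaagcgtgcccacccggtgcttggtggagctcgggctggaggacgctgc
Kif4: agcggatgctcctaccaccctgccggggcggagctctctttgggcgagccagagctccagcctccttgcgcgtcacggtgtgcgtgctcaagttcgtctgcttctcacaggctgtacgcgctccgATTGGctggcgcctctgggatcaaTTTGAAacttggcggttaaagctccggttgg
Cdk1: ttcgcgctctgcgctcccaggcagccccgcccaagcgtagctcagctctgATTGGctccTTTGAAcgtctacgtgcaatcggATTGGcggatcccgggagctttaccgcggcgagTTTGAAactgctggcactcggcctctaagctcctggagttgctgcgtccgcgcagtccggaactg
Ccnb2: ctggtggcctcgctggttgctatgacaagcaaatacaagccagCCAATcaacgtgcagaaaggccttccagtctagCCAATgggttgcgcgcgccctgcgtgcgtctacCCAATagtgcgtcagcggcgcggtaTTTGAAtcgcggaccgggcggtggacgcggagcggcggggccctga
Plk1: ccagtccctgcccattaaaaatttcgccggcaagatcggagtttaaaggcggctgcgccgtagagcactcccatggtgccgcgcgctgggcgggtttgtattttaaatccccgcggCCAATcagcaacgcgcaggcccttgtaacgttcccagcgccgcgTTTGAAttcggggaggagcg
Cenpa: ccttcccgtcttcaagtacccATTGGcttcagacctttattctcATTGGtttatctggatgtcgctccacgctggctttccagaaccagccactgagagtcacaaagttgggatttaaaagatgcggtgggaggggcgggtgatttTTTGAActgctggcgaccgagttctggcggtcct
Cdc20: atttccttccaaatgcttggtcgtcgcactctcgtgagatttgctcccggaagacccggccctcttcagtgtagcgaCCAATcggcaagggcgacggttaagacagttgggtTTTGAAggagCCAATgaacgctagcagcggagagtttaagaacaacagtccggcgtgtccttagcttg
Ube2c: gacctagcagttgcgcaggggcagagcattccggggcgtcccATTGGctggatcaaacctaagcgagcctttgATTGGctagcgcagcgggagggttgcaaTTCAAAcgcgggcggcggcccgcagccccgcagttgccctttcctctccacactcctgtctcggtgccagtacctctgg

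All of these 9 stretches, which were chosen by hand, hold both kinds of letters, that of Ube2c, with the smallest fold change, included. Of the 41 members with a window, only 27 hold both. Among those not shown, Ccnb1 had CCAAT but no CHR letters in its window, and Anln had CHR but no CCAAT letters. The 31 members with CHR letters had a median log2 fold change of 0.28 and 30 of them passed the test. The 10 without had a median of 0.23 and 8 passed. Whether these sets differ was not tested, and 18.9% of all tested genes were called higher by limma. Tested genes outside the 46 that carried CHR letters from 50 bases before the start onward numbered 406, of which 117 (28.8%) were called higher and 56 (13.8%) lower, with a median log2 fold change of 0.09. Among these 406, the 38 that belong to the related lists of cell division and replication genes had 28 called higher and 0 lower, and the other 368 had 89 higher and 56 lower. Tested genes with a window and no CHR letters near the start had 20.4% higher and 19.7% lower of 9578.

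**Figure D2:**
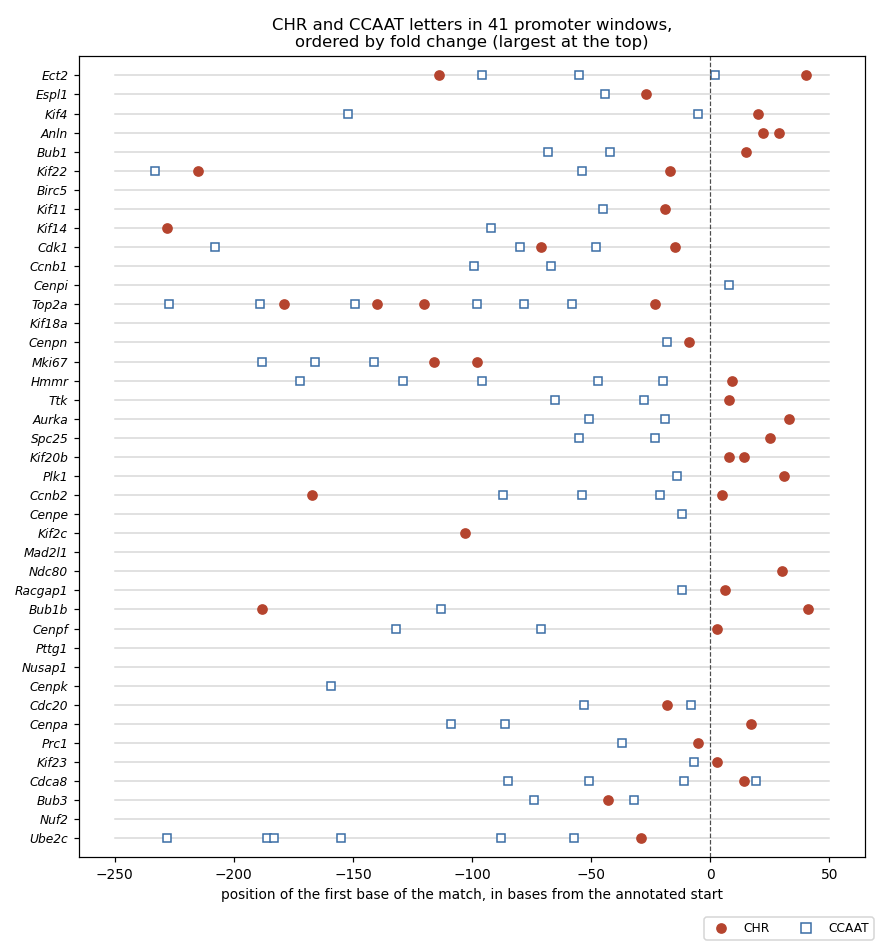
Positions of CHR letters (red circles) and CCAAT letters (open blue squares) in the promoter windows of 41 mitotic genes, 1 gene a row, ordered by fold change with the largest at the top. The horizontal axis is the distance of the first base of a match from the annotated start, in bases, and for genes with several listed starts the first is drawn. CHR letters gather around the start (28 of 41 members have them from 50 bases before it onward), at the top and at the bottom of the order.

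The kinases and cyclins of mitotic entry were higher in shArl4c without exception, and all 5 passed limma's test. Cdk1, the kinase that drives entry into mitosis, had 136, 120.4 and 132 CPM in shArl4c 2, 3 and 4, against 100.3, 99.9 and 102 CPM in shControl 1, 2 and 3 (1.28-fold, log2 fold change 0.36, SE 0.05, limma adjusted p = 7.45e-06). Its partner Ccnb1, encoding cyclin B1, had 144, 124 and 146 CPM in the shArl4c libraries and 107, 107 and 108 CPM in the shControl libraries (1.29-fold, limma adjusted p = 3.29e-05). The lowest shArl4c value of both genes was that of shArl4c 3, and it was still above every shControl value. Ccnb2, the second B-type cyclin gene, was 1.20-fold higher (limma adjusted p = 0.00455). Aurka, the Aurora kinase of spindle poles, had 73.7, 65.1 and 72.2 CPM in the shArl4c libraries and 58.0, 55.3 and 59.1 CPM in the shControl libraries (1.22-fold, limma adjusted p = 0.000415). Plk1, the Polo-like kinase of spindle and cytokinesis, had 92.1, 81.2 and 91.2 CPM in the shArl4c libraries and 72.3, 73.4 and 74.7 CPM in the shControl libraries (1.20-fold, limma adjusted p = 0.000605). In each of these 5 genes the shArl4c and shControl libraries did not overlap. The annotation names pseudogenes of Ccnb1 and Ccnb2, so the split of their reads is uncertain.

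The chromosomal passenger complex corrects wrong attachments at the centromere and later acts at the cleavage site. Its kinase gene Aurkb had 53.9, 50.1 and 51.1 CPM in shArl4c 2, 3 and 4, against 39.0, 33.6 and 40.5 CPM in shControl 1, 2 and 3 (1.37-fold, log2 fold change 0.45, SE 0.07, limma adjusted p = 2.47e-05). Birc5, encoding the subunit survivin, had 51.2, 51.9 and 49.1 CPM in the shArl4c libraries and 39.2, 38.4 and 38.3 CPM in the shControl libraries (1.31-fold, limma adjusted p = 1.43e-05). Incenp, the scaffold of the complex, was 1.23-fold higher (limma adjusted p = 0.000226). The smallest rise of the complex was in Cdca8, encoding borealin, with 45.4, 45.0 and 45.6 CPM in the shArl4c libraries and 38.6, 43.3 and 40.2 CPM in the shControl libraries (1.11-fold, limma adjusted p = 0.0462). Its shArl4c values lay within a narrow band above all shControl values, but the call was lost without shArl4c 2, shArl4c 4, shControl 1 or shControl 3 (limma adjusted p = 0.0931, 0.116, 0.204 and 0.121). It was lost as well with edgeR (0.0755) and DESeq2 (0.221) as adjusted p.

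All 5 genes of the spindle assembly checkpoint rose. Bub1, a checkpoint kinase at kinetochores, rose the most, with 64.97, 57.3 and 66.3 CPM in shArl4c 2, 3 and 4, against 46.6, 46.8 and 48.7 CPM in shControl 1, 2 and 3 (1.33-fold, log2 fold change 0.40, SE 0.06, limma adjusted p = 2.27e-05). Ttk, encoding the kinase MPS1 that starts checkpoint signalling, had 29.3, 27.7 and 26.6 CPM in the shArl4c libraries and 20.004, 23.3 and 24.7 CPM in the shControl libraries (1.23-fold, limma adjusted p = 0.007), and its call was lost without shControl 1 (limma adjusted p = 0.0638). Mad2l1, encoding the checkpoint effector MAD2, had 62.8, 58.8 and 62.6 CPM in the shArl4c libraries and 52.4, 52.0 and 52.9 CPM in the shControl libraries (1.17-fold, limma adjusted p = 0.00186). Bub1b, encoding BUBR1, which binds CDC20 together with MAD2, was 1.15-fold higher (limma adjusted p = 0.00191). Bub3, the partner of both BUB proteins, was 1.11-fold higher (limma adjusted p = 0.00988), and its call was lost without shControl 2 (limma adjusted p = 0.0506) and with DESeq2 (adjusted p = 0.0654). The groups did not overlap in any of the 5 genes.

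The NDC80 complex, the microtubule-binding arm of the outer kinetochore, had 2 of its 4 subunit genes called higher and 2 that did not pass. Spc25 had 29.4, 28.0 and 27.9 CPM in shArl4c 2, 3 and 4, against 22.1, 22.7 and 24.7 CPM in shControl 1, 2 and 3 (1.23-fold, log2 fold change 0.28, SE 0.07, limma adjusted p = 0.00297). Ndc80 had 31.3, 31.4 and 30.1 CPM in the shArl4c libraries and 25.2, 26.2 and 28.3 CPM in the shControl libraries (1.16-fold, limma adjusted p = 0.0166), and its call was lost without shControl 1 or shControl 2 (limma adjusted p = 0.0885 and 0.0634) and with DESeq2 (adjusted p = 0.108). Spc24, which pairs with Spc25, had 17.4, 17.5 and 18.5 CPM in the shArl4c libraries and 16.2, 15.1 and 17.2 CPM in the shControl libraries and did not pass (limma adjusted p = 0.218), although its groups did not overlap. Nuf2, which pairs with Ndc80, had 47.3, 39.1 and 43.8 CPM in the shArl4c libraries and 38.7, 39.4 and 41.2 CPM in the shControl libraries and did not pass (limma adjusted p = 0.178). The Nuf2 value of shArl4c 3 lay inside the shControl range, and without that library the gene passed (limma adjusted p = 0.00746). Whether the subunits differ from each other in their fold change was not tested.

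Of 6 further centromere and kinetochore genes, 5 rose and 1 did not pass. Cenpi, a subunit of the inner kinetochore network, had 39.2, 41.4 and 41.5 CPM in shArl4c 2, 3 and 4, against 31.4, 31.5 and 32.7 CPM in shControl 1, 2 and 3 (1.28-fold, log2 fold change 0.34, SE 0.06, limma adjusted p = 0.000117). Cenpn, which recognises CENP-A nucleosomes, was 1.26-fold higher (limma adjusted p = 0.0038). Cenpe, a kinesin motor that carries chromosomes to the spindle equator, had 113, 111 and 108 CPM in the shArl4c libraries and 96.0, 92.6 and 91.7 CPM in the shControl libraries (1.19-fold, limma adjusted p = 0.000202). Cenpf, a large protein of the outer kinetochore, was 1.14-fold higher (limma adjusted p = 0.00179). Cenpa, the histone H3 variant of centromeres, had 102, 101 and 106 CPM in the shArl4c libraries and 96.8, 90.6 and 88.3 CPM in the shControl libraries (1.12-fold, limma adjusted p = 0.0119). The call of Cenpa was lost without shArl4c 4, shControl 2 or shControl 3 (limma adjusted p = 0.0678, 0.0576 and 0.075) and with DESeq2 (adjusted p = 0.0658). Cenpk, an inner kinetochore subunit and the member with the fewest reads, had 8.64, 7.05 and 6.43 CPM in the shArl4c libraries and 6.64, 6.86 and 5.63 CPM in the shControl libraries, with groups that overlapped (limma adjusted p = 0.311). It had 68 to 119 reads per library, and its coefficient of variation was 15.5% in shArl4c and 10.3% in shControl, where counting error alone would give 10.1% in shArl4c and 10.7% in shControl.

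All 9 mitotic kinesin genes rose. Kif4, the chromokinesin that shapes chromosomes and the central spindle, had 78.8, 75.3 and 74.995 CPM in shArl4c 2, 3 and 4, against 57.9, 56.6 and 53.6 CPM in shControl 1, 2 and 3 (1.36-fold, log2 fold change 0.44, SE 0.05, limma adjusted p = 9.47e-07). Kif22, another chromokinesin, was 1.32-fold higher (limma adjusted p = 4.23e-05). Kif11, the motor that pushes spindle poles apart, had 101, 95.7 and 98.9 CPM in the shArl4c libraries and 73.9, 74.7 and 77.1 CPM in the shControl libraries (1.31-fold, limma adjusted p = 1.55e-06). Kif14, which acts in cytokinesis, was 1.30-fold higher (limma adjusted p = 0.000201), Kif18a, which limits the length of kinetochore microtubules, 1.25-fold (limma adjusted p = 0.00289), and Kif20b, which acts late in cytokinesis, 1.22-fold (limma adjusted p = 0.000198). Kif20a, which moves the passenger complex to the central spindle, had 147, 133 and 149.9 CPM in the shArl4c libraries and 119.5, 114 and 119 CPM in the shControl libraries (1.22-fold, limma adjusted p = 0.000113). The smallest differences were those of Kif2c, a microtubule depolymerase at centromeres, and Kif23, the kinesin of the centralspindlin complex. Kif2c had 43.6, 42.9 and 49.4 CPM in the shArl4c libraries and 33.7, 40.7 and 41.8 CPM in the shControl libraries (1.17-fold, limma adjusted p = 0.0382) and Kif23 was 1.12-fold higher (limma adjusted p = 0.038). The call of Kif2c was lost without shArl4c 2, shArl4c 4 or shControl 1 (limma adjusted p = 0.0534, 0.165 and 0.206), and that of Kif23 without shArl4c 2, shArl4c 4, shControl 1 or shControl 2 (limma adjusted p = 0.0743, 0.165, 0.177 and 0.117). Neither passed with edgeR (0.057 for Kif2c and 0.0532 for Kif23 as adjusted p) or DESeq2 (0.0828 and 0.164). Kif20a shares 29.3% of its exon bases with Cdc23 and Kif4 15.1% with Pdzd11, on the opposite strand in each case, and the sources used here do not say whether counting used strand. Pseudogenes of Kif4 and Kif22 are also annotated.

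Genes of spindle microtubules and mitotic chromosomes were higher as well. Hmmr, a spindle protein gene, had 113, 108 and 116 CPM in the shArl4c libraries and 89.1, 90.3 and 92.5 CPM in the shControl libraries (1.24-fold, limma adjusted p = 1.88e-05). Tpx2, the activator of Aurora A at spindle microtubules, had 157, 141 and 161 CPM in the shArl4c libraries and 134, 138 and 137 CPM in the shControl libraries (1.12-fold, limma adjusted p = 0.0109). Nusap1, which stabilises spindle microtubules, was 1.14-fold higher (limma adjusted p = 0.0128), and Prc1, which bundles the antiparallel microtubules of the central spindle, 1.12-fold (limma adjusted p = 0.00839). The call of Tpx2 was lost without shArl4c 4 or shControl 1 (limma adjusted p = 0.0811 and 0.0638), that of Nusap1 without shArl4c 4 or shControl 2 (limma adjusted p = 0.0649 and 0.0542) and that of Prc1 without shControl 1 (limma adjusted p = 0.0627). Nusap1 was not called by DESeq2 (adjusted p = 0.0975), and 11.1% of the exon bases of Prc1 are shared with Rccd1 on the opposite strand. Top2a, the topoisomerase that untangles sister chromatids, had 452, 436 and 439 CPM in shArl4c 2, 3 and 4, against 351, 351 and 365 CPM in shControl 1, 2 and 3 (1.24-fold, log2 fold change 0.31, SE 0.04, limma adjusted p = 2.84e-06). Mki67, encoding the proliferation antigen Ki-67 that coats mitotic chromosomes, had 366, 373 and 363 CPM in the shArl4c libraries and 301, 288 and 299 CPM in the shControl libraries (1.24-fold, limma adjusted p = 3.36e-06). Top2a and Mki67 had the most reads of all members, and each of their shArl4c values was above every shControl value.

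The 3 genes of cytokinesis and RhoA control rose, and Ect2 had the largest rise of the 46. Ect2, the exchange factor that activates RhoA at the cell equator, had 161, 152 and 163 CPM in shArl4c 2, 3 and 4, against 106, 108 and 115 CPM in shControl 1, 2 and 3 (1.45-fold, log2 fold change 0.53, SE 0.05, limma adjusted p = 2.49e-08). Its means were 159 ± 6.29 CPM in shArl4c and 109.6 ± 4.91 CPM in shControl (SD, n = 3 each), and every shArl4c library was above every shControl library. Anln, the scaffold anillin that links RhoA, actin and myosin, had 264, 253 and 261 CPM in the shArl4c libraries and 189, 195 and 198 CPM in the shControl libraries (1.34-fold, limma adjusted p = 1.04e-07). Racgap1, the centralspindlin partner of Kif23 that recruits ECT2, had 221, 201 and 219.6 CPM in the shArl4c libraries and 177, 184 and 197 CPM in the shControl libraries (1.15-fold, limma adjusted p = 0.00333). Whether the folds of Ect2 and Racgap1 differ was not tested.

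Genes of anaphase onset included both the second largest rise of the 46 and the smallest difference. Espl1, encoding separase, had 157, 157 and 156 CPM in shArl4c 2, 3 and 4, against 108, 104 and 116 CPM in shControl 1, 2 and 3 (1.43-fold, log2 fold change 0.52, SE 0.05, limma adjusted p = 3.16e-08). Its inhibitor securin, encoded by Pttg1, had 39.9, 33.9 and 41.4 CPM in the shArl4c libraries and 33.2, 34.2 and 33.3 CPM in the shControl libraries (1.14-fold, limma adjusted p = 0.0498). The securin groups overlapped, with shArl4c 3 inside the shControl range. The call of Pttg1 was lost without shArl4c 2, shArl4c 4, shControl 1, shControl 2 or shControl 3 (limma adjusted p = 0.158, 0.244, 0.14, 0.095 and 0.133) and with edgeR (adjusted p = 0.0846) and DESeq2 (0.164). Cdc20, the activator of the anaphase-promoting complex, had 96.3, 87.9 and 100.2 CPM in the shArl4c libraries and 82.7, 85.5 and 84.6 CPM in the shControl libraries (1.13-fold, limma adjusted p = 0.0147), with a call lost without shArl4c 2, shArl4c 4 or shControl 1 (limma adjusted p = 0.05005, 0.105 and 0.072) and with DESeq2 (adjusted p = 0.0626). Ube2c, the ubiquitin-conjugating enzyme of that complex, had 58.6, 53.9 and 55.9 CPM in the shArl4c libraries and 53.4, 52.9 and 53.0 CPM in the shControl libraries and did not pass (1.06-fold, limma adjusted p = 0.273). Its groups did not overlap, but shArl4c 3 was close to the shControl values. Of its exon bases, 22.8% are shared with Tnnc2 on the opposite strand.

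**Figure D3:**
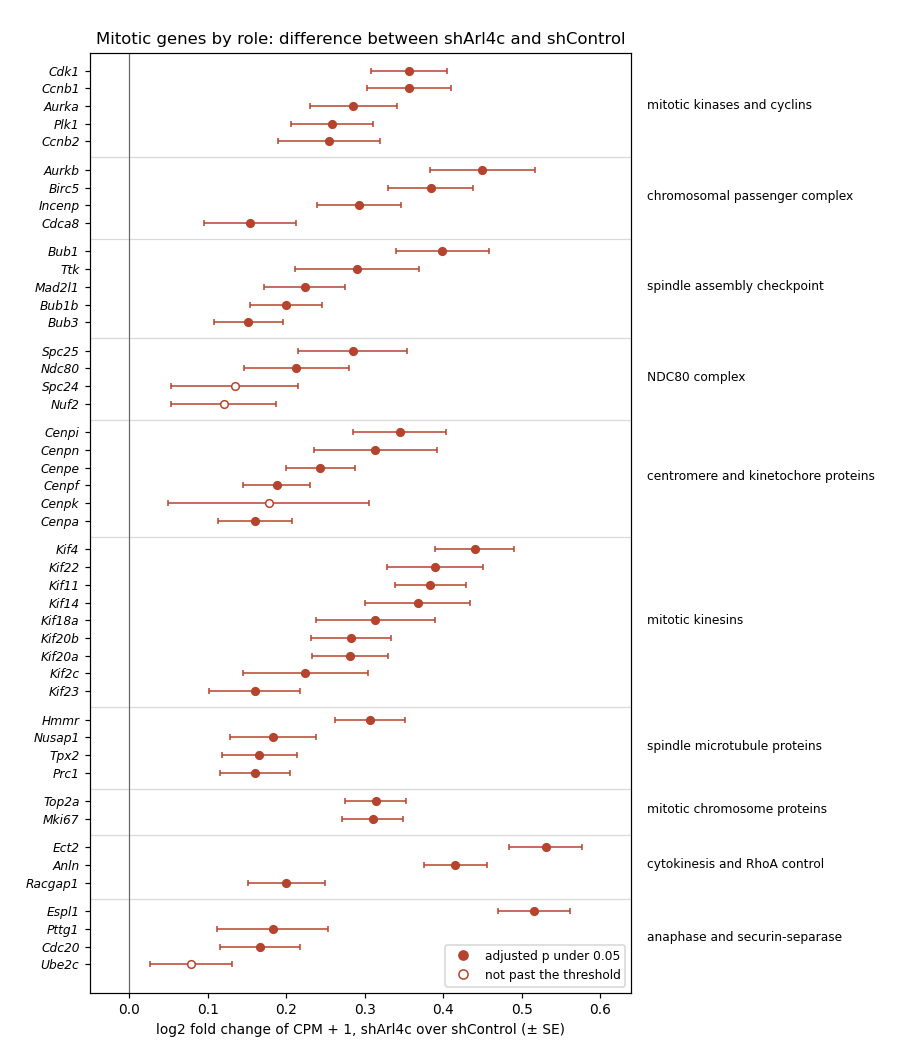
The horizontal axis gives the log2 fold change of CPM + 1, shArl4c over shControl, with its SE from limma (n = 3 libraries a group), for each of the 46 mitotic genes grouped by role. Filled points passed an adjusted p under 0.05 and the 4 open points (Spc24, Nuf2, Cenpk, Ube2c) did not, and all points lie to the right of 0, between 0.08 and 0.53.

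**Figure D4:**
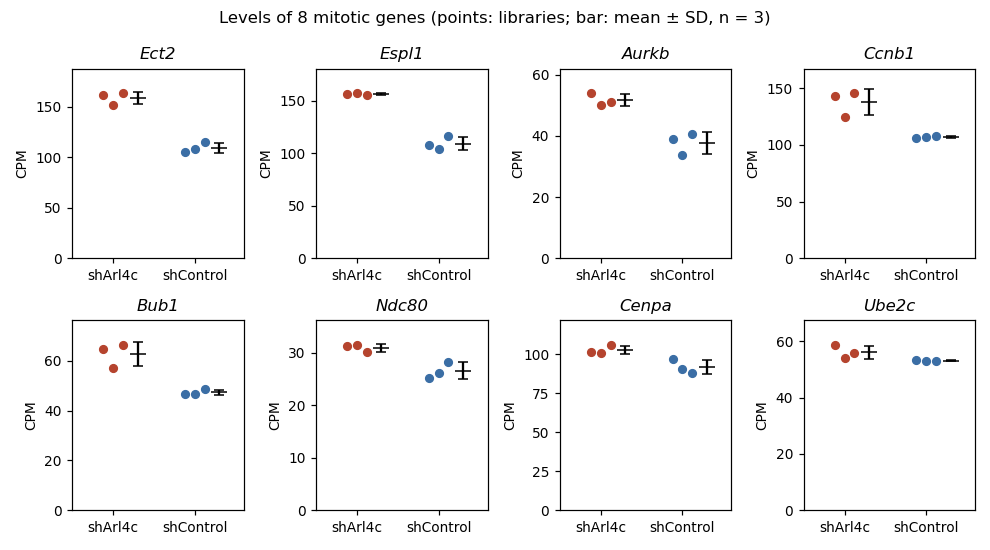
Levels in CPM (vertical axes, from 0) of 8 mitotic genes in each library, with shArl4c in red on the left and shControl in blue on the right of each panel, and the mean ± SD beside the points. Ect2 and Espl1 had the largest folds (1.45 and 1.43) and Ube2c the smallest (1.06).

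Levels can be set side by side between genes only per length. Divided by the length of the annotated transcript with the longest coding sequence, Top2a was highest, with 84.7 in shArl4c and 68.1 in shControl CPM per kilobase, followed by Cenpa (70.1 in shArl4c and 62.7 in shControl) and Racgap1 (70.0 in shArl4c and 60.9 in shControl). Kif14 was lowest (5.48 in shArl4c and 4.22 in shControl), and the median member stood at 27.3 in shArl4c and 21.1 in shControl. Within the NDC80 complex, whose subunits are present in equal numbers, the CPM per kilobase of Ndc80 were 14.0 in shArl4c and 12.1 in shControl, of Nuf2 18.1 in shArl4c and 16.5 in shControl, of Spc24 13.0 in shArl4c and 11.8 in shControl and of Spc25 18.6 in shArl4c and 15.2 in shControl. The passenger complex was wider, with Birc5 at 53.6 in shArl4c and 40.8 in shControl and Aurkb at 26.5 in shArl4c and 19.3 in shControl. These levels depend on the transcript chosen, and Mad2l1, whose chosen transcript has 7557 bases, stood at 8.12 in shArl4c and 6.94 in shControl.

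Related genes of the kinetochore, the chromosomes, the spindle and mitotic entry were called higher more often than lower, though many did not pass. Of all tested genes, limma called 18.9% higher and 18% lower. Of 25 further subunits of the inner and outer kinetochore and their loading factors, 12 rose, 0 fell and 13 missed the threshold (median log2 fold change 0.25). Zwint had 121 ± 2.39 CPM in shArl4c and 90.1 ± 0.908 CPM in shControl (1.34-fold, limma adjusted p = 1.78e-07), Pmf1 of the MIS12 complex was 1.39-fold and Knl1, the scaffold for BUB proteins, 1.23-fold higher. Of 18 condensin and cohesin genes, 13 rose and 0 fell, with a median of 0.29, and the condensin gene Ncapg2 had 79.7 ± 0.480 CPM in shArl4c and 53.2 ± 2.06 CPM in shControl (1.50-fold, limma adjusted p = 1.9e-08). Ncapg was 1.40-fold and Ncapd2 1.32-fold higher. Of 17 regulators of mitotic entry and exit, 11 rose and 1 fell (median 0.27). The 1 that fell was Arpp19, named after its value was seen (1.18-fold lower, limma adjusted p = 0.00486). Cdc25b, a phosphatase that activates CDK1, had 63.4 ± 2.47 CPM in shArl4c and 40.1 ± 2.09 CPM in shControl (1.58-fold, limma adjusted p = 2.29e-08), while Ccna2, encoding cyclin A2, was 1.33-fold and Ccnf 1.39-fold higher. Of 30 further spindle and centrosome genes, 14 rose and 0 fell (median 0.18), led by Gpsm2, a spindle orientation gene (1.50-fold, limma adjusted p = 8.56e-08), Pcnt (1.28-fold) and Kif15 (1.39-fold). In the kinetochore, condensin and spindle lists, edgeR and DESeq2 also called 0 genes lower, and 0 were lower at an unadjusted p under 0.05.

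Checkpoint genes outside the 46 were mostly higher, with 1 exception. Of 10, 7 rose and 1 fell, with a median log2 fold change of 0.25, beside 18.9% higher and 18% lower over all tested genes. The gene that fell was Mad1l1, encoding the kinetochore anchor of MAD2, with 48.9, 48.1 and 50.4 CPM in the shArl4c libraries and 73.0, 74.2 and 71.9 CPM in the shControl libraries (1.49-fold lower, log2 difference -0.56, limma adjusted p = 2.56e-08). Its groups did not overlap and it was opposite in direction to Mad2l1. Sgo2a, a protector of centromere cohesion, was 1.31-fold higher (limma adjusted p = 2.05e-05) and Trip13, which remodels MAD2, 1.33-fold (limma adjusted p = 0.000242).

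Some related lists held calls in both directions. Of 17 subunits and regulators of the anaphase-promoting complex, 3 rose, 3 fell and 11 missed the threshold (median log2 fold change -0.02), beside 18.9% higher and 18% lower over all tested genes. Anapc16 had 42.1 ± 0.926 CPM in shArl4c and 53.3 ± 1.81 CPM in shControl (1.26-fold lower, limma adjusted p = 7.45e-05) and Cdc26 was 1.23-fold lower, while Fbxo5, encoding the inhibitor EMI1, was 1.25-fold higher. The other calls of this list, named after their values were seen, were Cdc23 (1.13-fold lower), Fzr1 (1.15-fold higher) and Anapc11 (1.13-fold higher). Without shControl 2, 1 gene of the list was called higher. Of 16 other cytokinesis genes, 4 rose and 4 fell (median -0.01), beside the same 18.9% and 18% over all tested genes. The myosin light chain gene Myl9 had 81.0 ± 3.59 CPM in shArl4c and 255 ± 7.76 CPM in shControl (3.14-fold lower, log2 difference -1.64, limma adjusted p = 1.13e-15), and Arhgef2, a microtubule-bound activator of RhoA, was 1.66-fold lower, whereas Septin9 was 1.30-fold higher. Septin2 and Rhoa also fell and Cit, Shcbp1 and Chmp4b also rose, likewise named after their values were seen. The medians of both lists lie so close to 0 that their sign changed between the settings tried. Of 10 tested tubulin genes, 6 rose and 3 fell (median 0.16), again beside 18.9% and 18% over all tested genes. Tuba1a was 1.51-fold lower, with Tuba4a 1.41-fold and Tuba1c 1.35-fold higher. The others that fell, named after their values were seen, were Tubb3 (1.86-fold lower) and Tubb2b (1.29-fold lower). Tubulin genes are close copies of each other, so the split of reads among them is uncertain.

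Genes of regulator groups known to act on cell cycle genes were also measured. Whether each acts on the 46 was not tested. Of 22 tested genes of the DREAM, MuvB, E2F and NF-Y groups and of Foxm1, 9 rose and 1 fell (median log2 fold change 0.12). DESeq2 called 5 higher and 0 lower. Over all tested genes, limma called 18.9% higher and 18% lower, and DESeq2 13.6% higher and 14.3% lower. Mybl2, encoding B-MYB, had 33.2, 32.5 and 31.99 CPM in shArl4c 2, 3 and 4, against 21.6, 24.9 and 23.6 CPM in shControl 1, 2 and 3 (1.40-fold, log2 fold change 0.47, SE 0.07, limma adjusted p = 2.27e-05). Foxm1, a transcription factor of late cell cycle genes, had 119, 115 and 117 CPM in the shArl4c libraries and 99.5, 97.6 and 99.6 CPM in the shControl libraries (1.18-fold, limma adjusted p = 0.000162), and E2f7 was 1.25-fold higher (limma adjusted p = 0.000322). The gene that fell was Nfyc, a subunit of NF-Y, named after its value was seen (1.14-fold lower, limma adjusted p = 0.0468), and its call was lost with edgeR and DESeq2 and without shArl4c 3, shArl4c 4, shControl 1 or shControl 3. Of 13 D cyclins, their kinases and CDK inhibitors, 4 rose and 4 fell, beside the 18.9% and 18% of limma over all tested genes. Their median log2 fold change was near 0, and its sign changed when single libraries were left out. Cdkn1a, encoding the inhibitor p21, had 9.51, 10.9 and 8.80 CPM in the shArl4c libraries and 14.5, 17.2 and 17.1 CPM in the shControl libraries (1.68-fold lower, log2 difference -0.69, limma adjusted p = 1.97e-05). Cdkn2b, encoding p15, was 1.42-fold lower (limma adjusted p = 1.12e-07), while Ccnd1, encoding cyclin D1, was 1.42-fold higher (limma adjusted p = 2.09e-07) and Cdk4 1.23-fold (limma adjusted p = 1.79e-05). The other genes past the threshold, named after their values were seen, were Cdk6 and Cdk2, which rose, and Ccnd2 and Cdkn2a, which fell.

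DNA replication genes, which are expressed earlier in the cell cycle, had a larger median difference than the mitotic genes. Of 41, 33 rose and 1 fell, with a median log2 fold change of 0.38, against 0.28 for the 46 mitotic genes. The difference between the lists was not tested. Among all tested genes, 18.9% were called higher and 18% lower. Tk1, a thymidine kinase of S phase, had 73.9 ± 2.48 CPM in shArl4c and 46.8 ± 1.09 CPM in shControl (1.58-fold, limma adjusted p = 5.63e-09), and the replication genes Mcm5 and Pcna were 1.53-fold and 1.45-fold higher. The gene that fell was Orc6, of the origin recognition complex, named after its value was seen (1.53-fold lower, limma adjusted p = 1.57e-06).

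**Figure D5:**
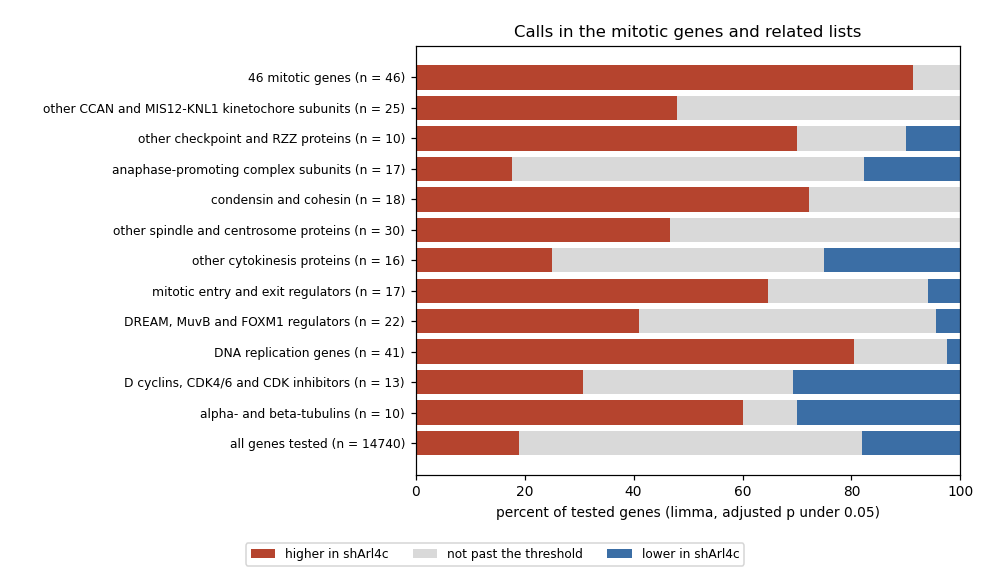
Bars give the percent of tested genes called higher in shArl4c (red), not past the threshold (grey) and called lower in shArl4c (blue) by limma at an adjusted p under 0.05, for the 46 mitotic genes at the top, 11 lists of related genes and all 14740 tested genes at the bottom. The mitotic genes (42 of 46 higher) and the replication genes (33 of 41 higher) hold few or no lower calls, while the anaphase-promoting complex, cytokinesis and tubulin lists hold calls in both directions.

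The labels name no tissue for mDE6, so the cells were checked against marker lists. Summed mesenchymal markers (10 genes) ran from 25081 to 25778 CPM in shArl4c and from 40866 to 42366 CPM in shControl. Most of that sum was Col1a1, Col1a2 and Fn1, which fell together with Col3a1 and Prrx1, 5 of the 9 tested. S100a4 (2.23-fold higher, limma adjusted p = 6.57e-08) and Pdgfrb (1.12-fold higher, limma adjusted p = 0.00288) rose, and Vim (log2 fold change -0.06, limma adjusted p = 0.351) and Twist1 (0.08, limma adjusted p = 0.359) did not pass. Epithelial markers, of which 8 of 12 were measured, summed to 9.22 to 12.1 CPM in shArl4c and 15.1 to 17.1 CPM in shControl, and Cdh1, encoding E-cadherin, had 0 reads in each of the 3 shArl4c libraries, where a count of 0 allows at most 0.218 to 0.230 CPM. Leukocyte markers (6 genes) summed to 9.51 to 10.7 CPM in shArl4c and 6.87 to 8.56 CPM in shControl, most of it Cd68 and Csf1r, with Ptprc, the general leukocyte marker, at no more than 0.0765 CPM in shArl4c and 0.148 CPM in shControl. Of the 3 tested leukocyte markers, Cd68 was 2.07-fold higher in shArl4c (limma adjusted p = 6.98e-05). Csf1r and Lyz2 did not pass (limma adjusted p = 0.97 and 0.552). Endothelial markers (3 of 5 measured) stayed at or below 1.74 CPM in shArl4c and 2.07 CPM in shControl. The part of the lower collagen and fibronectin levels in the mitotic genes' values was not tested. With reads scaled by the plain library total instead, the median log2 fold change was 0.31 for the mitotic genes and 0.04 for all tested genes, and 42 members were called higher. Of all genes, 4108 to 6885 were called in either direction over the settings tried.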

How the data were processed

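Total RNA of 6 mDE6 libraries was sequenced after a directional library preparation, per the labels' protocols. The submitters' processing notes name Trimmomatic 0.38, Bowtie2, RSEM 1.3.0, edgeR and the build GRCm39. The deposited table holds CPM per gene, scaled by the authors. Divided by the smallest step of each library, 100% of values were whole reads (tolerance 0.001 reads), with 12316770 to 14976113 reads per library and all 6 value columns used. The column names carry the group but could not be matched to single samples.

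Of 22032 genes, the 14740 whose mean reached 1 CPM were tested with limma 3.58.1 (R 4.3.3) on log2(CPM + 1), with trend and robust moderation and Benjamini-Hochberg adjustment, at 0.05. Fold changes on this scale understate those of low genes, and printed folds are ratios of mean CPM. edgeR 4.0.16 on the recovered reads called 5303 genes and DESeq2 1.42.0 called 4108. The test was tried on simulated data. Gene symbols came from a mouse gene name table (21880 IDs matched), transcript lengths and overlaps from GENCODE on GRCm38, and promoter windows from RefSeq on GRCm38.p6. The 46 genes and all lists were chosen with earlier results of these data known. Named outside the 46 were the 3 genes of each list with the smallest p past the threshold, Arl4c, Foxm1, Mybl2, Cdkn1a and markers. Intervals and floors, such as 3 reads for a count of 0, cover counting error only.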

Additional observations from a re-analysis of the deposited data

How the results depend on the processing

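Members called higher numbered 33 to 43 over all 17 alternatives (42 as reported) and 33 to 43 when 1 library was left out, and 0 were called lower in any of them. The fewest, 33, came with DESeq2, with limma without trend and robust moderation and without shControl 1. The most, 43, came without shArl4c 3 and with array weights, and edgeR called 38. Their median log2 fold change ran from 0.25 to 0.31 over the alternatives. Of the 46, 29 were called in every alternative, 13 called members lost the call in at least 1, and Spc24, Cenpk and Ube2c were called in none. Over all genes, 4108 to 6885 were called, and over the related lists 111 to 155. The calls lost without 1 library are given beside each gene. Limma without trend and robust moderation lost the calls of Cdca8, Cenpa, Kif2c, Kif23, Tpx2, Prc1, Racgap1, Cdc20 and Pttg1. Racgap1 lost its call in that setting only. With no filter on low values, Cdca8, Kif23 and Pttg1 lost their calls. Rescaling by median of ratios lost those of Cdca8 and Pttg1, and a pseudocount of 5 that of Pttg1. The regulators of DREAM, MuvB and FOXM1 had 9 genes called higher by limma and 5 by DESeq2, and the anaphase-promoting complex list had 3 called higher, against 1 in limma without trend and robust moderation. No paired analysis was possible because the shArl4c columns are numbered 2 to 4 and the shArl4c samples 1 to 3 in the labels, so these columns could not be matched to replicate numbers. With 3 libraries a group, the median SE over members was 0.05 on the log2 scale, and Cenpk, with 68 to 119 reads per library, had the fewest reads.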
